A study of Mus musculus with 4 samples.

Results

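Transcript levels of 10 genes that write, maintain or remove DNA methylation were examined in the frontonasal prominence (FNP), the embryonic facial tissue that forms the nose and snout. The members were chosen by name, for the known role of their products. No measured value enters this rule, although earlier results of these data were known when it was written. All 10 were found among the 33708 rows of autosomal genes in the table analysed. The FNPs came from 4 FVB/NJ mouse embryos at E10.5 and 29 somites, and RNA sequencing was performed on stranded libraries of polyadenylated RNA from single embryos. There were 2 Smchd1+/+ embryos (WT, labelled as 1 female and 1 male) and 2 Smchd1MommeD43/MommeD43 embryos (MD43, labelled as 2 males). MommeD43 is a chemically induced missense allele of Smchd1, whose product is a silencing factor that acts on chromatin. The allele was carried in every tissue of the embryo and not only in the FNP, and both genotypes were untreated. WT replicate 2 and MD43 replicate 2 shared a mother. A second record of the study lists WT replicate 2 as female, in which case sex and genotype cannot be told apart. The question was whether the level of the DNA methylation machinery differed between the genotypes in this tissue.

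DNA methylation is the addition of a methyl group to cytosine, in mammals mostly where cytosine is followed by guanine (CpG), and at promoters it is associated with stable silencing. DNMT3A and DNMT3B place the mark on unmethylated DNA, DNMT1 copies it to the new strand after replication, and UHRF1 recognises the half-modified sites and brings DNMT1 to them. The TET enzymes oxidise the methyl group in steps, and thymine DNA glycosylase (TDG) cuts out the later oxidation products so that base excision repair can restore an unmodified cytosine. In embryos these enzymes are known for the reprogramming of early development and for silencing of imprinted, repeat and germline sequences. On the inactive X chromosome, SMCHD1 is known to be needed for methylation of many CpG islands.

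The promoters of the members at the extremes of the comparison, Dnmt3b and Tet2, are shown first because they had the largest measured differences in each direction. The sequences are RefSeq promoter windows of 250 bases ending just before an annotated start (GRCm38.p6), printed 5′ to 3′ on the strand of the gene with each CpG in capitals. Neither window overlapped an annotated exon, and the Tet2 window lies inside the gene span given below, in an intron downstream of its outermost start.
Dnmt3b, chr2:153649199-153649448, plus strand: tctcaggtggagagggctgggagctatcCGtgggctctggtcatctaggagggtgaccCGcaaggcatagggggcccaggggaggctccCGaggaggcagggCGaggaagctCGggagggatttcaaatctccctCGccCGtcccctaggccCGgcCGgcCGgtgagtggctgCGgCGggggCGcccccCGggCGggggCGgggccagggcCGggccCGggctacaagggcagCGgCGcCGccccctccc
Tet2, chr3:133544391-133544640, minus strand: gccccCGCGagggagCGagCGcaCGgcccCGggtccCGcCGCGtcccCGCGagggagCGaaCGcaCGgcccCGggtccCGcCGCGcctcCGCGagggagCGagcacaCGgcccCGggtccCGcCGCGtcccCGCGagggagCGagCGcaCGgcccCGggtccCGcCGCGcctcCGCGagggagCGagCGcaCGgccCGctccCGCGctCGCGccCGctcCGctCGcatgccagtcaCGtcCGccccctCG

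The Tet2 window held 51 CpG, more than 99.9% of the 32851 RefSeq promoter windows of this length, whose median was 6. It was built of a tandem repeat: shifted against itself by 42 bases, 77.9% of its bases were identical. The Dnmt3b window held 21 CpG, more than 83.7% of the windows, at a GC content of 75.2% against 83.6% for Tet2. All 10 members had at least 1 window, 17 in all. The Dnmt3a windows held between 15 and 40 CpG, the Dnmt1 windows 2, 7 and 26, and the Dnmt3l windows between 3 and 5. DNA methylation itself was not measured in these libraries.

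The maintenance pair, Dnmt1 and Uhrf1, each had a window with an E2F octamer (TTTCGCGC, TTTGGCGC, TTTCCCGC or TTTGCCGC, on either strand), the letters known from promoters of genes used in DNA replication. Such an octamer was found in 1.86% of all windows and in 2 of the 17 windows of the members. The 30 bases around each are shown because both genes are described together below, with the octamer in capitals and read on the strand of the gene.
Dnmt1, chr9:20952824-20952853, minus strand: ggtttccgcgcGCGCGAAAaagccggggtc
Uhrf1, chr17:56304117-56304146, plus strand: cccgagtcgggTTTCGCGCgcccaggcgtc

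The Dnmt1 octamer began 219 bases before the annotated start that follows its window, and the Uhrf1 octamer 185 bases before. Both windows lie downstream of the outermost start of their gene. Annotated exons covered 166 bases of this Dnmt1 window and 0 of the Uhrf1 window, so the Dnmt1 window is not purely upstream sequence. GGGCGG, on either strand, was found in 12 of the 17 windows of the members (70.6%, in 9 of 10 members) and in 32.7% of all windows. CCAAT was found in 6 of the 17 windows (35.3%) and in 33.8% of all windows. Windows of the same gene can overlap. A match of letters is a description and no measurement of binding.

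The table gave 1 value per genotype, the authors' log2 RPKM (reads per kb of transcript scaled to library size, on a log2 scale), which is the mean over the 2 libraries. No value therefore carries a standard deviation or a replicate number, and no difference between the genotypes could be tested against the spread between embryos. Reads were recovered from the values, since each value holds the product of 2 library counts, a whole number, and "reads" below is the geometric mean of both libraries. The depth implied was 22328791 reads per library for MD43 and 16055882 for WT. Expressed genes below are the 15377 with 10 or more reads in either genotype, and well-covered genes are the 10757 with 100 or more in both. Errors are the smallest standard error that counting alone allows (counting SE), and the variation between embryos comes on top of it. Smchd1 itself differed by less than its counting error, at 3.30 log2 RPKM in MD43 and 3.31 in WT.

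Reads were found for 9 of the members in the FNP, with log2 levels from 0.48 to 6.87 in MD43 and from 1.06 to 6.70 in WT, and the order was nearly the same in both genotypes. The maintenance genes stood at the top. Uhrf1, at 117 RPKM in MD43 and 104 RPKM in WT, exceeded 98.0% and 97.8% of the expressed genes. Dnmt1 followed at 61.0 and 53.5 RPKM, and Uhrf2, the relative of Uhrf1, at 18.3 and 19.2 RPKM. The de novo enzymes Dnmt3b and Dnmt3a, the glycosylase gene Tdg and the TET gene Tet3 lay between 7.84 and 14 RPKM. Tet1 and Tet2 were lowest, at 3.0 and 1.4 RPKM in MD43 and 3.5 and 2.1 RPKM in WT, and Tet2 exceeded only 26.6% and 31.7% of the genes.

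**Figure D1:**
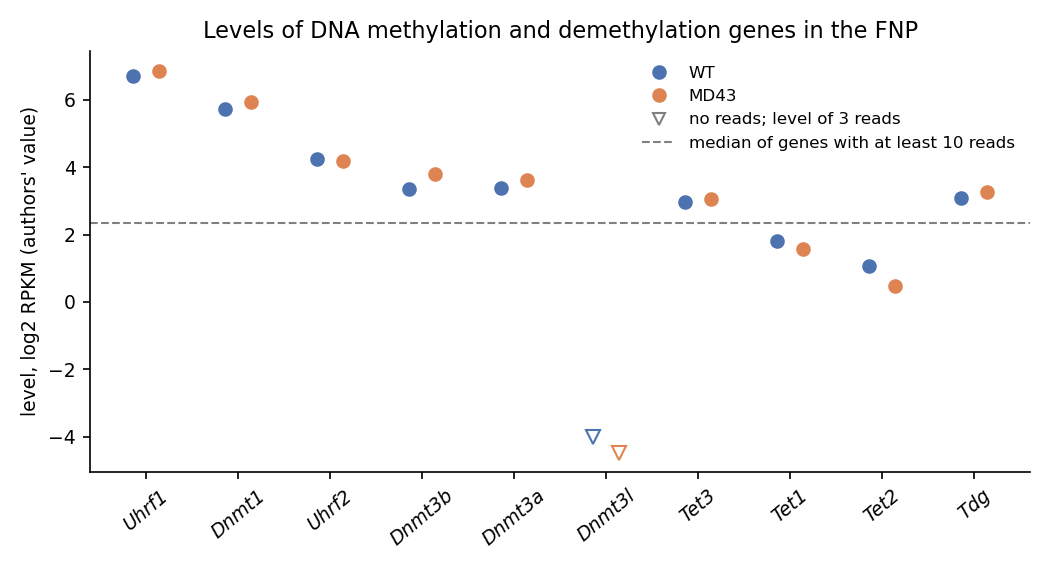
Level of each member in WT and MD43 on the log2 RPKM axis, 1 point per genotype (the authors' value over 2 libraries), with the median of expressed genes dashed. Uhrf1 and Dnmt1 stand above the others in both genotypes, Tet1 and Tet2 lie under the dashed line, and the open triangles give the level of 3 reads for Dnmt3l, which had none.

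In both genotypes each neighbour in this order differed from the next by more than the 95% counting interval, with a single exception. In WT, Dnmt3a (3.39 log2 RPKM) and Dnmt3b (3.35) were 0.03 ± 0.04 apart, within counting error. In MD43 Dnmt3b (3.81) stood 0.20 ± 0.03 above Dnmt3a (3.61). The spread between embryos is not part of these intervals. The order depends on the transcript length used, and when reads were divided by the longest annotated transcript in place of all exons, Dnmt3a stood above Dnmt3b in both genotypes (4.39 against 4.05 in MD43 and 4.17 against 3.59 in WT, log2 units).

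Among the maintenance genes, Dnmt1 and Uhrf1 were slightly higher in MD43 and Uhrf2 slightly lower. Dnmt1 (ENSMUSG00000004099, GRCm38 chromosome 9, 20907209 to 20959888, minus strand) encodes the methyltransferase that copies the mark after replication. Its reads numbered 10050 in MD43 against 6334 in WT, and its log2 level was 5.93 in MD43 and 5.74 in WT, a difference of 0.19 ± 0.02 (counting SE). Uhrf1 (ENSMUSG00000001228, chromosome 17, 56303321 to 56323486, plus strand), which guides DNMT1 to half-modified sites, had 11159 reads in MD43 against 7105 in WT. Its log2 level was 6.87 in MD43 and 6.70 in WT, a difference of 0.18 ± 0.02. Of the well-covered genes, 14.8% lay at least as far above 0 as Dnmt1 and 16.7% as far as Uhrf1.

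The ratio of Uhrf1 to Dnmt1, from levels in RPKM, was 1.92 in MD43 and 1.94 in WT, so the pair kept nearly the same proportion. Uhrf2 (ENSMUSG00000024817, chromosome 19, 30030513 to 30093722, plus strand) binds the same kind of site but is not known to replace UHRF1 in maintenance. Its reads numbered 3502 in MD43 against 2642 in WT, with log2 levels of 4.19 and 4.26 and a difference of -0.07 ± 0.03. The Uhrf1 to Uhrf2 ratio was 6.43 in MD43 and 5.42 in WT.

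Of the de novo group, both expressed methyltransferase genes were higher in MD43. Dnmt3b (ENSMUSG00000027478, chromosome 2, 153649450 to 153687730, plus strand) is the de novo enzyme best known for repeats and CpG islands, and in humans its loss causes an immunodeficiency with unstable centromeric repeats. Its reads numbered 1596 in MD43 against 837 in WT, and its log2 level of 3.81 in MD43 against 3.35 in WT gave a difference of 0.45 ± 0.04 (95% counting interval 0.37 to 0.54), or 1.37-fold. Among the well-covered genes, 1.37% lay as far or farther in this direction. Dnmt3a (ENSMUSG00000020661, chromosome 12, 3806007 to 3914443, plus strand), the de novo enzyme of imprints and many differentiated tissues, had 4534 reads in MD43 against 2793 in WT. Its log2 level was 3.61 in MD43 and 3.39 in WT, a difference of 0.22 ± 0.02, and 11% of the same genes lay as far or farther.

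Summed over both enzymes, the de novo level was 26.2 RPKM in MD43 and 20.7 RPKM in WT, and the Dnmt3b to Dnmt3a ratio was 1.15 and 0.977. Dnmt1 exceeded this sum 2.33-fold in MD43 and 2.59-fold in WT. Dnmt3l (ENSMUSG00000000730, chromosome 10, 78041947 to 78063622, plus strand), the germ cell cofactor that has no catalytic activity of its own, had no reads in any of the 4 libraries. Its values in the table are those of a gene without reads, so no fold is given. With 3 reads in each library it would have stood at 0.0450 RPKM in MD43 and 0.0625 RPKM in WT, and a level below these could have gone without reads at this depth. Dnmt3c, the rodent paralog of Dnmt3b used in male germ cells, had 4.90 reads in MD43 and none in WT, and reads of similar stretches could be shared between these paralogs.

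The TET genes did not all differ in the same direction. Tet2 (ENSMUSG00000040943, chromosome 3, 133463679 to 133545139, minus strand), which encodes the TET enzyme best known from blood cells, had 527 reads in MD43 against 564 in WT, although the MD43 libraries were on average the deeper ones. Its log2 level was 0.48 in MD43 and 1.06 in WT, a difference of -0.57 ± 0.06 (95% counting interval -0.70 to -0.45), or 1.49-fold lower. Of the well-covered genes, 1.86% lay as far or farther below 0. Tet1 (ENSMUSG00000047146, chromosome 10, 62804570 to 62908996, minus strand), known from embryonic stem cells and primordial germ cells, had 1036 reads in MD43 against 869 in WT. Its log2 level was 1.59 in MD43 and 1.81 in WT, a difference of -0.22 ± 0.05, reached by 12.8% of the same genes in that direction.

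Tet3 (ENSMUSG00000034832, chromosome 6, 83362373 to 83459084, minus strand), the TET enzyme of the zygote and of neural tissue, had 3129 reads in MD43 against 2101 in WT. Its log2 level was 3.07 and 2.97, a difference of 0.10 ± 0.03. Tet3 made up most of the summed TET level in both genotypes, 65.6% in MD43 and 58.4% in WT, whereas Tet2 made up 10.9% and 15.5% and Tet1 23.5% and 26.1%. The sum itself was 12.8 RPKM in MD43 and 13.4 RPKM in WT, so it differed less than its parts. The Tet3 to Tet2 ratio was 6.0 in MD43 and 3.8 in WT.

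Tdg (ENSMUSG00000034674, chromosome 10, 82629828 to 82650799, plus strand) completes the removal of oxidised cytosine. Its reads numbered 1157 in MD43 against 729 in WT, with log2 levels of 3.27 and 3.08 and a difference of 0.19 ± 0.05. In the direction of higher values, 14.7% of the well-covered genes lay as far.

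**Figure D2:**
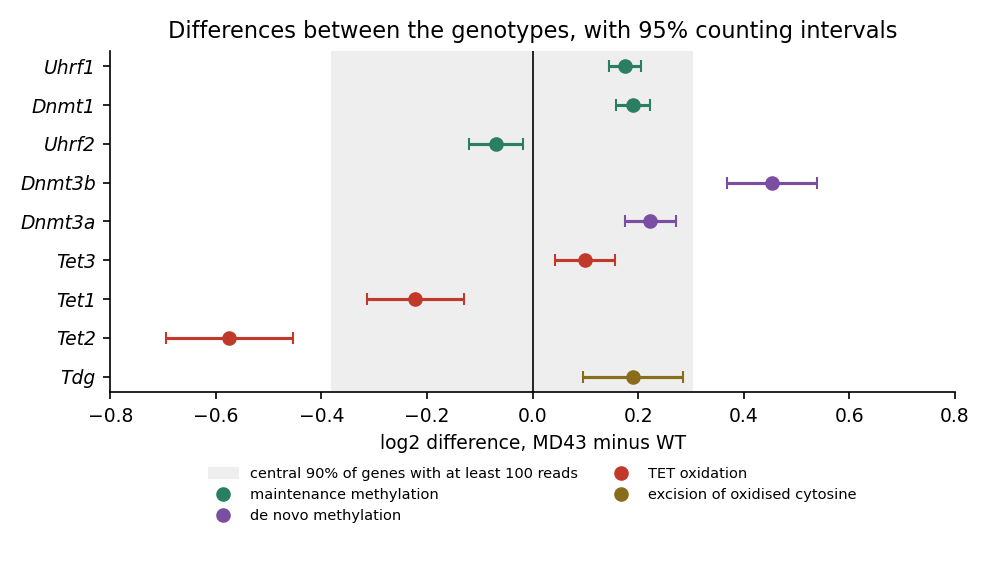
Difference of each expressed member on the log2 scale, MD43 minus WT, with bars for the 95% counting interval (counting error alone) and the central 90% of well-covered genes shaded. Dnmt3b at 0.45 and Tet2 at -0.57 lie outside the shaded band, and the other 7 members lie inside it.

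Of the 10 members, 9 passed the minimum of 10 reads. Among these, 6 were higher in MD43 and 3 were lower, and the median log2 difference was 0.18. The median over all expressed genes was 0.0057, and the central 90% of the well-covered genes ran from -0.38 to 0.30. With a minimum of 0.32 on the log2 scale (a ratio of 5 to 4), 1 member, Dnmt3b, was higher in MD43 against 10.3% of all expressed genes, and 1 member, Tet2, was lower against 13.9%. With 1 of 9 members in each direction, these shares were near those of all genes. With a minimum of 1.5-fold, 0 members were higher against 4.24% of all expressed genes, and 0 members were lower against 6.43%, Tet2 falling just short of that fold. The counts over all genes include many genes of few reads, at which folds of this size are frequent.

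**Figure D3:**
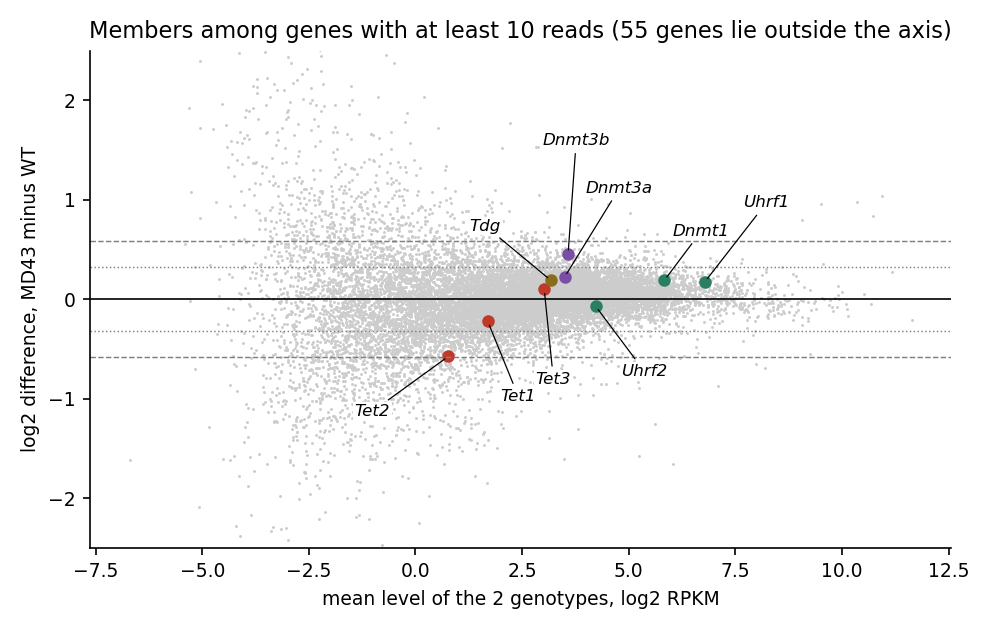
Difference on the log2 scale, MD43 minus WT, against the mean level in log2 RPKM for expressed genes (grey) and the 9 expressed members (coloured by role), with dotted lines at 0.32 and dashed lines at 0.58 (1.5-fold) above and below 0. Grey points spread widely at low levels and narrow at high ones, the members lie inside the 1.5-fold lines, and 55 genes lie outside the axis.

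For 4 members the product of the library counts could be split into possible counts of the 2 libraries. All pairs of whole numbers with this product were listed where 1 count was at most 4 times the other. Which count belongs to which embryo cannot be told. For Tet2 in MD43 a single pair was left, 453 and 613 reads. In WT it was either 379 and 840 or 420 and 758 reads. For Tet1 a single pair was left in each genotype, 873 and 1229 reads in MD43 and 732 and 1031 in WT, and the larger count was 1.41 times the smaller in both. For Dnmt3b the WT counts were 796 and 881, and 5 pairs were possible in MD43, from 843 and 3020 to 1510 and 1686. Tdg had 3 possible pairs in each genotype. These pairs hold for whole products within a relative tolerance of 5e-07, which 99.3% of MD43 products and 99.0% of WT products between 100000 and 300000 met. The MD43 products of Tet1, Tdg and Dnmt3b are larger than any range in which wholeness was measured, and that of Dnmt3b is known only to within 1.27. The WT products of the 4 genes, from 318360 for Tet2 to 754692 for Tet1, also lie above 300000. Between 300000 and 1000000, 64.9% of WT products were whole within 0.1, so the WT pairs are less certain too. With a tolerance of 1e-06, MD43 had 3 possible pairs for Tet1 and 8 for Dnmt3b.

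The libraries of a genotype differed in depth. Over genes whose product has a single such pair, the median ratio of the larger to the smaller count was 1.52 in MD43 (706 genes) and 1.49 in WT (778 genes), which places the libraries near 27492383 and 18135020 reads for MD43 and 19609809 and 13146040 for WT. If the larger count always came from the deeper library, the Tet2 level was 0.40 and 0.57 log2 RPKM in the MD43 libraries, against 0.77 and 1.34 or 0.92 and 1.20 in the WT libraries. Both MD43 values then lay under both WT values for either WT pair. Tet1 on the same assumption stood at 1.53 and 1.64 in MD43 and 1.77 and 1.85 in WT, again without overlap. With the wider tolerance Tet1 was apart in 2 of 3 combinations.

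Dnmt3b stood at 3.14 and 3.57 in the WT libraries on this assumption, and the MD43 libraries lay above both in 3 of the 5 possible pairs, or 4 of 8 with the wider tolerance. For Tdg the genotypes were apart in 2 of 9 combinations. Genotypes without overlap are frequent in these data: of 300 genes with a single pair in both genotypes, 42% were apart on the same assumption. If the larger count came from the shallower library in either genotype or in both, the genotypes overlapped in each of these 4 genes, with 1 exception among 10 combinations for Dnmt3b when the depth ratio was taken from products of 100000 to 300000. The assignment was not tested.

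**Figure D4:**
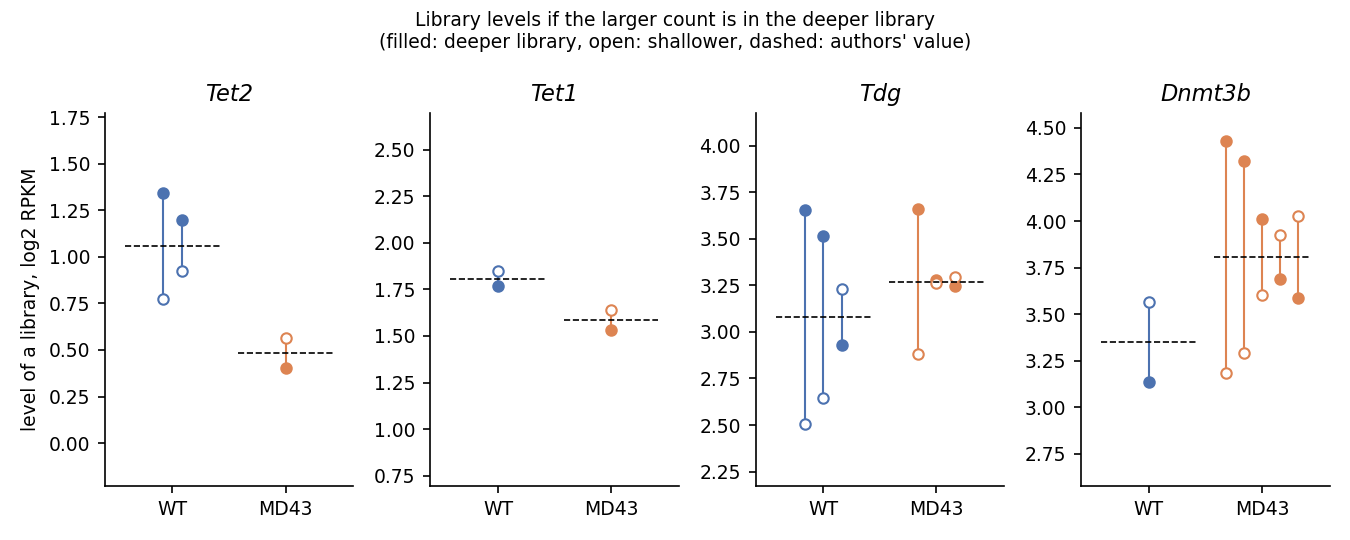
Possible levels of the 2 libraries of each genotype, in log2 RPKM, for the 4 members whose counts could be listed, if the larger count is in the deeper library. Each vertical line joins the libraries of 1 possible pair, the dashed line is the authors' value, and each panel has its own axis of the same span. The MD43 lines lie under the WT lines for Tet2 and Tet1, and overlap them in part for Tdg and Dnmt3b.

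Genes that share their position with a member were examined because their reads could be counted in both. Strand use in the counting is not stated in the sources used here, and without it reads of a gene and its antisense partner cannot be told apart. The antisense gene at the start of Dnmt3b, Dnmt3bos, had 3.46 reads in MD43 against 1.73 in WT, and Dnmt3aos had none. Gm42567, antisense at the start of Tet2, had under 1 read in both genotypes, and B230319C09Rik, antisense within Tet3, had 2.32 reads in MD43 against 0.949 in WT. Glt8d2, which overlaps the end of Tdg on the other strand, had 24.0 and 32.1 reads. Aire overlaps the start of Dnmt3l and had 7.75 and 19.4 reads, while Dnmt3l had none. All these counts were small beside those of the expressed members.

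The rest of the pathway was described through 6 lists of 60 genes, of which 57 were in the table and 49 were expressed. Among the 49, 31 were higher and 18 lower in MD43, with a median log2 difference of 0.057. At 0.32 or more on the log2 scale, 6 were higher and 8 lower, and at 1.5-fold the counts were 0 and 4. Over the 6 lists together, these counts were near the shares of all genes given above.

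Of 8 methyl-CpG readers, which bind the methylated site, 3 were higher and 5 lower, with a median of -0.04. Zbtb4, a zinc finger reader, had 81.2 reads in MD43 against 92.6 in WT and a log2 difference of -0.67 ± 0.16. Mbd2 differed by -0.17 ± 0.06, and Mbd3, the reader with the highest level, by 0.12 ± 0.02. The chromatin partners held 11 expressed genes, 8 higher and 3 lower, with a median of 0.08. Trim28, the corepressor recruited by zinc finger proteins to imprinted and repeat sequences, had the highest level and differed by 0.20 ± 0.01. Zfp57, a zinc finger protein that protects imprints and recruits TRIM28, had 1082 reads in MD43 against 1000 in WT and differed by -0.36 ± 0.04. Cxxc4, whose product binds unmethylated CpG and is known to lower the TET2 protein, differed by -0.44 ± 0.04. Hells, the remodeller required for methylation of repeats, differed by 0.08 and its partner Cdca7 by 0.05.

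The list of base excision repair, the route that follows TDG, also took in Gadd45 genes and cytidine deaminases, which are not enzymes of that route. It held 14 expressed genes with a median of 0.08. Of these, 3 were higher and 4 lower by 0.32 or more, larger shares than the 10.3% and 13.9% of all expressed genes. The higher genes include the deaminase gene Apobec3 (0.52 ± 0.13) and the lower ones include Gadd45b, so these shares are not of repair enzymes alone. Apex1, the endonuclease acting after the glycosylase, had the highest level and differed by 0.37 ± 0.02 (7208 reads in MD43 and 4023 in WT). Neil3, a glycosylase of replicating cells, differed by -0.61 ± 0.08, and Gadd45b, a stress gene linked to demethylation, by -0.84 ± 0.18 on 58.7 and 75.3 reads.

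The methionine and S-adenosylmethionine cycle, which provides the methyl donor of the DNMT enzymes, held 10 expressed genes with a median of 0.13. Ahcy, which clears the inhibitory product of methylation, was higher by 0.40 ± 0.03, and Shmt2, the mitochondrial enzyme that feeds the folate cycle, was lower by 0.59 on the log2 scale, with a counting SE of 0.03. The 5 genes of 2-oxoglutarate metabolism, the cosubstrate of the TET enzymes, were all at or above 0. Ogdh differed by 0.45 ± 0.03, D2hgdh by 0.34 ± 0.15, and Idh2, with the highest level, by 0.00 ± 0.02. Trdmt1, the DNMT relative that methylates transfer RNA, differed by 0.16 ± 0.11.

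DNA replication genes were described because Dnmt1 and Uhrf1 are known to be used in S phase. All 22 were expressed, 19 were higher and 3 lower in MD43, and the median log2 difference was 0.11. Mcm5, a subunit of the replicative helicase, differed by 0.28 ± 0.02 and Fen1, the flap endonuclease, by 0.26 ± 0.03. Rrm2, the ribonucleotide reductase subunit with the highest mean level of the list, differed by 0.20 ± 0.02. The differences of Dnmt1 (0.19) and Uhrf1 (0.18) lay within the range of these genes, from -0.09 to 0.28. So did those of Dnmt3a (0.22), Tdg (0.19), Tet3 (0.10) and Uhrf2 (-0.07), so this is not particular to the pair. Whether replication accounts for any of them was not tested.

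Germline genes known to be silenced by promoter methylation were nearly without reads. Of 16 listed, 15 were in the table and 4 were expressed, Sycp1, Sycp3, Brdt and Tdrd1, none above 1 RPKM. Sycp3, of the synaptonemal complex, had 16.7 reads in MD43 against 15.2 in WT and a difference of -0.33 ± 0.36. Tdrd1, a germ granule gene, had 37.1 and 17.3 reads and a difference of 0.62 ± 0.30. Dazl had under 3 reads in each genotype, and Mael, Asz1 and Hormad1 had none.

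**Figure D5:**
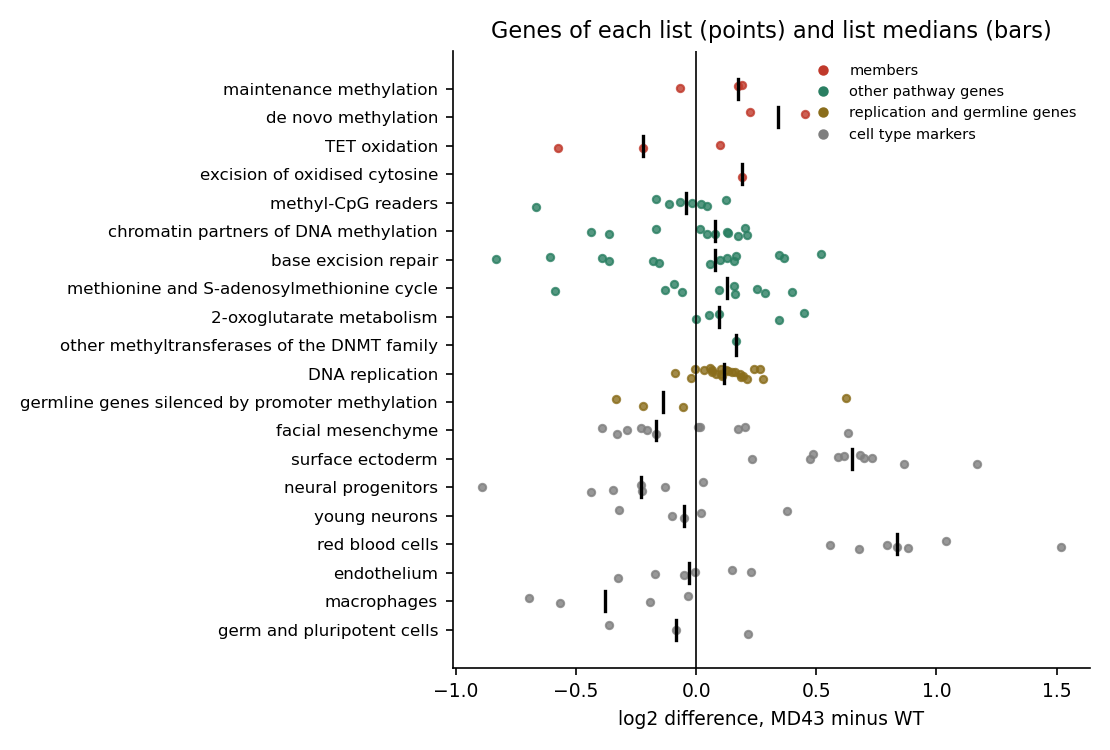
Difference on the log2 scale, MD43 minus WT, of each expressed gene in the member, pathway, replication, germline and cell type lists, with a bar at each list median. The pathway lists centre between -0.04 and 0.16, whereas the surface ectoderm and red blood cell markers lie above 0 for every gene.

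Markers of the cell types in the dissected tissue are given because a shift in tissue composition would be read as a difference in level. In bulk tissue, fewer cells of a type and less RNA per cell cannot be told apart. Markers of facial mesenchyme, the main tissue of the FNP, were present for all 11 genes, and their summed level was 171 RPKM in MD43 and 173 RPKM in WT. All 10 surface ectoderm markers were higher in MD43, with a median of 0.65 and sums of 193 and 123 RPKM. Cldn6, a tight junction gene of embryonic epithelium, differed by 0.87 ± 0.05 and Cdh1 (E-cadherin) by 0.73 ± 0.05. The 7 red blood cell markers were also all higher, with a median of 0.84 and sums of 5983 and 3163 RPKM, and Slc4a1, the red cell anion exchanger, differed by 1.52 ± 0.08.

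Of the 7 neural progenitor markers, 6 were lower in MD43, with a median of -0.23 and sums of 249 RPKM in MD43 and 292 RPKM in WT. Fabp7, a fatty acid binding protein of radial glia, differed by -0.89 ± 0.05. Endothelial markers summed to 8.76 and 9.08 RPKM, with a median of -0.03. Young neuron markers summed to 97.2 and 97.0 RPKM, mostly from Tubb3, with 2 higher, 3 lower and a median of -0.05. They parted, with Stmn2 at -0.32 ± 0.06 and Neurod1 at 0.38 ± 0.12. All 4 expressed macrophage markers were lower in MD43, with a median of -0.38 and sums of 2.98 and 3.23 RPKM, mostly from Csf1r, while Adgre1 and Aif1 had under 10 reads. Of the germ and pluripotent cell markers, Pou5f1, Nanog, Dppa4, Dppa5a and Prdm14 had under 10 reads, and the sum was 6.51 and 6.21 RPKM, mostly from Kit. The markers of surface ectoderm and red blood cells were thus all higher in MD43, and most neural progenitor markers were lower. Of the facial mesenchyme markers, 5 were higher and 6 lower, with a median of -0.17. Csf1r, which made up most of the macrophage sum, differed by only -0.03 ± 0.09. The part of any cell type in the differences of the members was not tested.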

How the data were processed

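RNA of the FNPs of 4 embryos was sequenced, 2 WT and 2 MD43, from 100 ng of total RNA each. The study's methods and the submitters' processing notes give bcl2fastq, Trim Galore 0.4.4 with Cutadapt, HISAT2 2.0.5, the genome GRCm38.p6 and SeqMonk's RNA quantitation pipeline. The deposited values are log2 RPKM, which the authors scaled to library size and to the length of the transcripts, with 1 value per genotype. The authors' fold change, mean and false discovery rate columns in the table hold their own comparison and were not used. Sex chromosomes are not in the table and were not analysed here.

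Of the 33708 rows, 33101 matched GENCODE M21 by symbol and position. A log2 difference of -0.4758, shared by 12862 rows, marked genes without reads, each library being taken as 0.9 reads. Relative to this constant and the exon length, the values gave the product of the 2 library counts. It was whole (within 0.1) for 99.7% of MD43 products and 99.8% of WT products between 10000 and 100000. Between 300000 and 1000000 the shares were 69.2% and 64.9%, and larger products were not checked. Factor pairs used a relative tolerance of 5e-07. The recovery was tested on simulated data. Intervals cover counting error only.

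The planned count model needs values per library, so no test was run. Compared were 15377 genes that reached 10 reads in either genotype. Named are the members, Smchd1, overlapping genes and, per list, the 2 largest differences among those reaching 50 reads in both genotypes and the highest level. Other genes named in the lists (Hells, Cdca7, Dnmt3c, Apobec3, Tdrd1, Brdt, Sycp1, Dazl, Mael, Asz1, Hormad1) were chosen after their values were seen. The members and lists were chosen with earlier results of these data known. Alternatives were pseudocounts of 0.1 and 1 RPKM, centring, a GC content and length correction, other read filters and another transcript length. Promoters are from RefSeq (GRCm38.p6). Python 3.11.15, pandas 2.3.3, numpy 2.4.6, scipy 1.17.1, sympy 1.14.0 and matplotlib 3.10.9 were used.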

Additional observations from a re-analysis of the deposited data

How the results depend on the processing

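No paired analysis was possible because each genotype has a single pooled value, and leaving out a library, a replicate block and count-based scalings were not run for the same reason. All 9 member differences kept their sign after the GC content and length correction. A pseudocount of 0.1 or 1 RPKM, the same in both genotypes, cannot change a sign. Centring moved each difference by only 0.0057, too little to change the sign of any member. Over all these settings the sizes varied as follows. Dnmt3b ranged from 0.42 to 0.45, Tet1 from -0.23 to -0.15 and Uhrf2 from -0.08 to -0.03. Tet2 ranged from -0.58 to -0.36, the latter with a pseudocount of 1 RPKM, which by construction shrinks differences of low genes. The count of members at least 0.32 apart on the log2 scale stayed at 2, or 3 without a filter, since Dnmt3l, which has no reads, is then counted, and the count at 1.5-fold stayed at 0. The median of the members ranged from 0.14 to 0.18. With the longest transcript as length, 7 of 9 members kept their place in the order of levels in MD43 and 5 in WT, where Dnmt3b and Tet3 (3.59 and 3.58 log2 units) and Tet2 and Tet1 (1.94 and 1.91) lay within counting error. A relative tolerance of 1e-06 for library counts, chosen after seeing the data, raised the possible pairs in MD43 from 1 to 3 for Tet1 and from 5 to 8 for Dnmt3b.

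With a pseudocount of 1 RPKM, the genes at least 0.32 higher and lower in MD43 numbered 575 and 791, against 1587 and 2144, and at 1.5-fold 71 and 171, against 652 and 989. Depth leaves Dnmt3l and most germline genes without a usable difference, and named genes under 100 reads, such as Gadd45b and Zbtb4, carry counting errors of 0.18 and 0.16.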

Other observations

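Mat2a, which encodes the S-adenosylmethionine synthetase subunit used in most tissues, had 60.9 reads in MD43 and 35.9 in WT, or 0.608 and 0.498 RPKM. This is low for a gene of such wide use, and the reason was not found in the table, so the value is given as listed and not as a settled level. Its regulatory partner Mat2b had 1996 and 1532 reads, or 17.9 and 19.1 RPKM. Apobec3, a cytidine deaminase that acts on viral DNA, had 176 reads in MD43 against 88.2 in WT, a log2 difference of 0.52 ± 0.13 (counting SE). Polb, the polymerase that fills the gap after base excision, had 861 and 487 reads and a difference of 0.34 ± 0.06. These genes were chosen after their values were seen.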
